A study of Mus musculus with 4 samples.

Results

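The genes of blood coagulation and fibrinolysis were followed through a liver microarray experiment. They comprise 35 genes for clotting factors, fibrinogen chains, anticoagulants, fibrinolytic proteins, vitamin K enzymes and related proteases and receptors. A probe belonged to a member when the gene name in the scanner files, or the current symbol of the probe's accession, was on the list. By this rule 52 of the 41174 probes and 35 of the 27670 genes named on the array were members, and 31 members could be tested.

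Clotting starts when tissue factor on cells outside the bloodstream meets factor VII, and a chain of proteases then turns prothrombin into thrombin, which cuts fibrinogen into fibrin. Hepatocytes secrete most of the plasma factors, many of them after carboxylation that depends on vitamin K, while endothelial cells and macrophages supply receptors, cofactors and activators. Anticoagulants such as antithrombin and the protein C system limit the chain, and plasmin dissolves the clot.

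Male C57BL/6 mice on a high-fat diet received intraperitoneal injections of an antisense oligonucleotide (ASO, a short nucleic acid designed to lower the transcript it pairs with). One group received an ASO against Plin2, a protein that coats lipid droplets, and the other a scrambled control ASO. Both ASOs were given at 25 mg/kg body weight, 2 injections a week for 4 weeks. Total liver RNA of 4 mice labelled Plin2-ASO (numbers 6, 7, 9 and 10) was set against that of 4 control mice (numbers 1, 2, 4 and 5), 1 mouse of each group on each of 4 Agilent arrays. RNA of the mice labelled Plin2-ASO carried the green dye (Cy3) and that of the control mice the red dye (Cy5). All 4 arrays used this orientation, so a dye effect and the treatment cannot be told apart. The labels used give no age of the mice.

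Values are log2 ratios of livers labelled Plin2-ASO over control livers on arrays 1 to 4, or normalised log2 signals of single livers, and the number of arrays limits their precision. Plin2 itself had log2 ratios of 0.24, 0.15, 0.83 and 0.36, a mean of 0.40 ± 0.15 (SE, n = 4, adjusted p = 0.156 by limma), so the targeted transcript read no lower in livers with that label than in control livers. Every direction below rests on the labels and dyes and turns round if either was swapped. Array 3 stood apart, with a mean correlation to the other arrays of 0.33 over all genes, against 0.51 to 0.65 for each of the others. Over the 31 members tested the same correlations were 0.33 for array 3 and 0.55 to 0.65 for the others. The median spot signal was 244 to 499 in livers labelled Plin2-ASO and 256 to 637 in control livers, array 3 having the lowest green and the highest red median, and no spot was saturated. Of 7 hepatocyte markers all were well above background on every array and Alb (albumin) fell by 1.70 on the log2 scale. The log2 of the summed signal of the 7 was 18.51 to 18.96 in livers labelled Plin2-ASO and 19.05 to 19.15 in control livers. The brightest genes weigh most in such a sum. The sums of array 1 leave out Ttr, which had no value there.

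Of the 31 members tested, F7, F11 and Klkb1 were higher and F2 was lower in the livers labelled Plin2-ASO at an adjusted p under 0.05 (limma, adjusted with Benjamini-Hochberg over all 18045 genes tested). That is 12.9% of the members, against 9.74% of all genes. By direction, 9.68% of the members were higher against 3.67% of all genes, and 3.23% were lower against 6.07%. The members were chosen with earlier results of these data known. Their shares in this paragraph and the next therefore cannot be read as a result about the pathway. The median log2 ratio of the members was 0.02, against -0.03 for all genes, and the median size of change was 0.29, against 0.23. The 31 ratios divided into 17 positive and 14 negative values.

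Of the members tested, 13 (41.9%) had an unadjusted p under 0.05, against 26.9% of all genes. The signals of the groups did not overlap for 11 members (35.5%, against 17.9% of all genes), and 17 had the same sign on every array measured (54.8%, against 36.6%). For 24 members the 95% interval of the mean lay within 1 log2 unit of no change, and for 18 it included 0. Leaving out 1 array moved the count of calls strongly: 0 members passed by limma without array 1 (unadjusted p under 0.05 for 9) and 0 without array 2 (for 10), while 13 passed without array 3 and Klkb1 alone without array 4. The calls over all genes moved in the same way. With every array 662 genes were higher and 1096 lower, against 145 and 206 without array 1. Without array 2 they were 163 and 218, and without array 4 386 and 619. Without array 3 the calls took in 41.9% of the members and 32.7% of all genes, with 16.1% of the members higher, against 12.4% of all genes, and 25.8% lower, against 20.3%. The 13 were F7, F11, Klkb1, Proz and Hgfac, which were higher, and F2, F2r, F8, Fgb, Plat, Serpinc1, Tfpi and Thbd, which were lower.

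**Figure D1:**
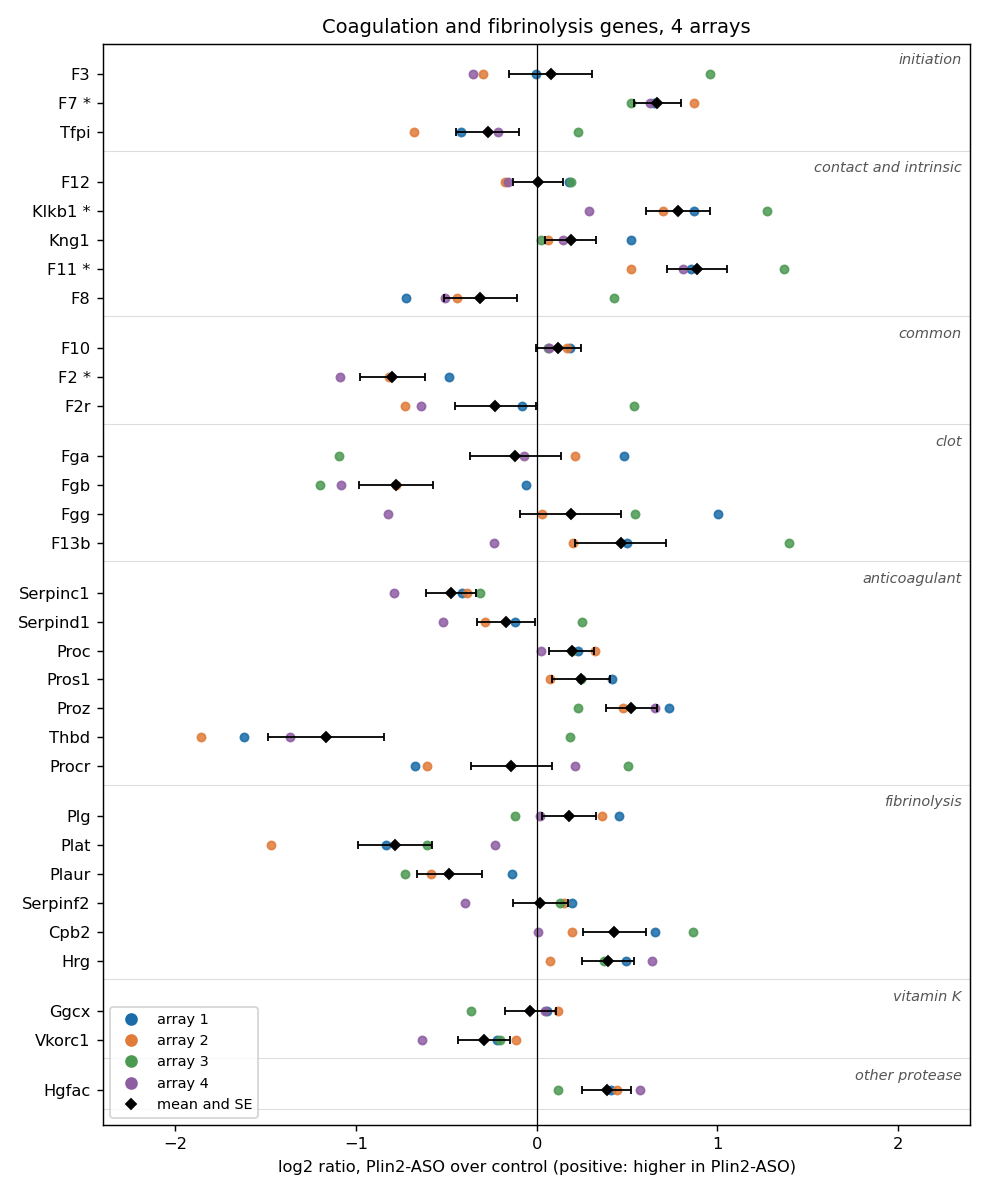
Log2 ratio (x axis, livers labelled Plin2-ASO over control livers) of the 31 members tested, in rows by role; coloured points are arrays 1 to 4, black diamonds the mean with its standard error, and stars mark F7, Klkb1, F11 and F2, which passed the threshold. All diamonds but that of Thbd, at -1.16, lie within 1 log2 unit of 0.

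Among the initiating genes, F7 rose and F3 and Tfpi did not pass. F7 encodes factor VII, the liver protease that binds tissue factor. Its log2 signal was 13.61, 13.39, 13.44 and 13.23 in the livers labelled Plin2-ASO, against 12.96, 12.52, 12.92 and 12.61 in the control livers. Each liver labelled Plin2-ASO was above all 4 control livers. F7 was 1.59-fold higher, with a mean log2 ratio of 0.67 ± 0.13 (SE, n = 4, 95% interval 0.36 to 0.97, adjusted p = 0.0238). The call ended without array 1, 2 or 4 (adjusted p = 0.156, 0.169 and 0.0680), with median centring (0.0563) and with the series table's values (0.0506). The probe (transcript NM_010172) lies at chr8:13009507-13009566 on the plus strand of mouse build mm7. No gene annotation of mm7 was used here, so no probe was placed in an exon.

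F3, tissue factor itself, read -0.00, -0.30, 0.96 and -0.35 on arrays 1 to 4, a mean of 0.08 ± 0.23 (SE, n = 4, adjusted p = 0.866). Array 3 alone was clearly positive. Tfpi, the inhibitor of the complex of tissue factor and factor VIIa, read -0.42, -0.68, 0.23 and -0.22, a mean of -0.27 ± 0.17 (adjusted p = 0.356), again with array 3 against the others. Without array 3 Tfpi passed (mean -0.44, adjusted p = 0.0350).

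In the contact and intrinsic group, F11 and Klkb1 rose among the 5 members tested of 6. F11 encodes factor XI, a liver protease that activates factor IX. Its log2 signal was 13.25, 13.02, 13.68 and 13.45 in the livers labelled Plin2-ASO, against 12.40, 12.50, 12.31 and 12.64 in the control livers. The groups did not overlap. F11 was 1.85-fold higher, with a mean log2 ratio of 0.89 ± 0.17 (SE, n = 4, 95% interval 0.50 to 1.28, adjusted p = 0.0205). It passed under all 14 alternatives that kept every array, and the call ended without array 1, 2 or 4 (adjusted p = 0.122, 0.0633 and 0.0555).

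Klkb1 encodes plasma prekallikrein, which factor XIIa converts to kallikrein. Its log2 signal was 12.78, 12.52, 12.53 and 12.12 in the livers labelled Plin2-ASO, against 11.91, 11.82, 11.26 and 11.83 in the control livers. The groups again did not overlap, though array 4 had the smallest difference. Klkb1 was 1.72-fold higher, with a mean log2 ratio of 0.78 ± 0.18 (SE, n = 4, 95% interval 0.36 to 1.20, adjusted p = 0.0384). The call held under all 14 alternatives with every array and ended without array 1 or 2 (adjusted p = 0.197 and 0.159).

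**Figure D2:**
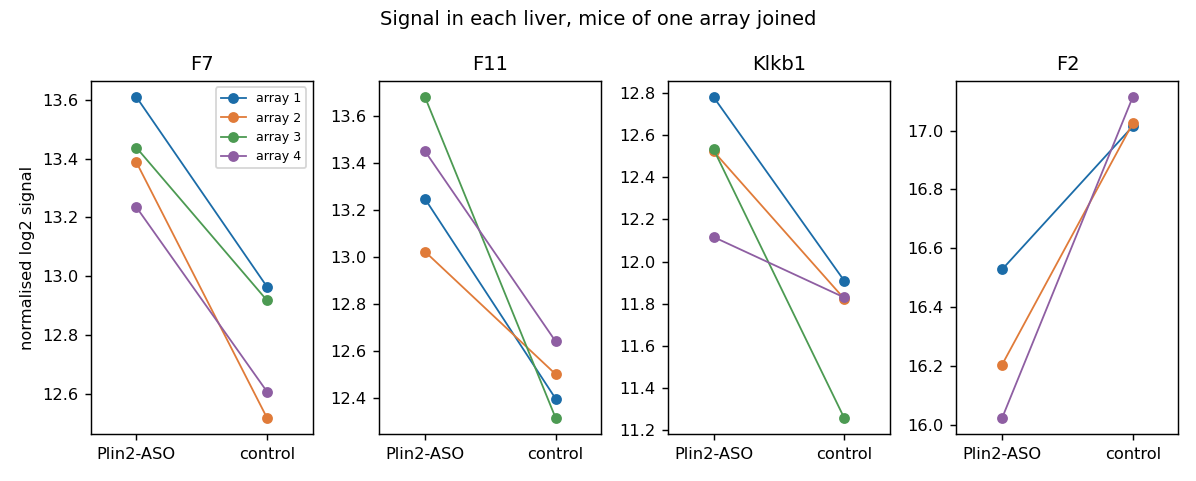
Normalised log2 signal (y axis) of F7, F11, Klkb1 and F2 in each liver, livers labelled Plin2-ASO at the left and control livers at the right of each panel; lines join the mice of one array and the y axes do not start at 0. In each panel the groups do not overlap, and F2 has 3 arrays because its spot on array 3 was marked as an outlier.

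The probes of F11 (chr8:44026954-44027013) and Klkb1 (chr8:44057884-44057943) lie near each other on the minus strand of mm7, and these genes are neighbours on the chromosome. The Klkb1 probe is shown because its reading is a call, and the promoters because both genes rose. Promoters are from RefSeq (build GRCm38.p6, 250 bases before to 50 after the gene's start), at chr8:45261982-45262281 for F11 and chr8:45294786-45295085 for Klkb1, both read on the minus strand. Capitals mark matches on either strand to short cores of liver transcription factor motifs or to the TATA box (TATAAA).
Klkb1 probe: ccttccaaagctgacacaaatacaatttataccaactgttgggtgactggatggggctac
F11 promoter: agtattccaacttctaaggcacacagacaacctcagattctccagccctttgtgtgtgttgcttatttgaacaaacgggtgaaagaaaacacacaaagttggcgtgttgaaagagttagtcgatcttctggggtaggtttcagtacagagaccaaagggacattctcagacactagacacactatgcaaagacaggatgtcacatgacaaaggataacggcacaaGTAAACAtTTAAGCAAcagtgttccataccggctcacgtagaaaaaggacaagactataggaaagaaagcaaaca
Klkb1 promoter: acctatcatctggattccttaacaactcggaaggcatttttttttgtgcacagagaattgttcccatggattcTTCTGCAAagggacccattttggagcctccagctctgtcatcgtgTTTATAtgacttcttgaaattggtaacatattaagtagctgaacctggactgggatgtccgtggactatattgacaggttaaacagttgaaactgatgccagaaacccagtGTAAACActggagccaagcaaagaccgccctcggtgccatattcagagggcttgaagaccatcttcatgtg
The FOXA core (TGTTTAC) stood 25 bases before the start in F11 and 21 before it in Klkb1, on the reverse strand in both. A C/EBP core (TTGCNNAA) was 17 bases before the start in F11 and 177 before it in Klkb1, and Klkb1 held TATAAA on the reverse strand 132 bases before the start. Of all 27025 promoters 3.55% held the FOXA core, 10.8% the C/EBP core and 14.2% TATAAA. The F7 promoter held none of the 6 cores searched.

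After their values were seen, the genes beside the members on the chromosome were looked up. Cyp4v3, a fatty acid hydroxylase next to Klkb1, read 1.11, 0.79, 1.49 and 0.52 on arrays 1 to 4, a mean of 0.97 ± 0.18 (SE, n = 4), 1.96-fold higher, adjusted p = 0.0204. All 4 arrays were positive, and the call ended without array 1 or 2 (adjusted p = 0.131 and 0.0848). Fam149a beyond it had a mean of 0.16 ± 0.18 (adjusted p = 0.604), and on the other side of F11 Mtnr1a and Fat1 had means of -0.80 ± 0.22 and -0.74 ± 0.24 (adjusted p = 0.0767 and 0.0981).

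The neighbouring clotting genes F7, F10 and Proz on the same chromosome had mean ratios of 0.67, 0.12 and 0.52, between Mcf2l (0.47, adjusted p = 0.184) and Pcid2 (0.07, adjusted p = 0.784). Cul4a, a ubiquitin ligase scaffold beyond Pcid2, was 4.46-fold higher (2.16 ± 0.15, adjusted p = 0.00143). Its call held with each array left out (adjusted p up to 0.0119).

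**Figure D3:**
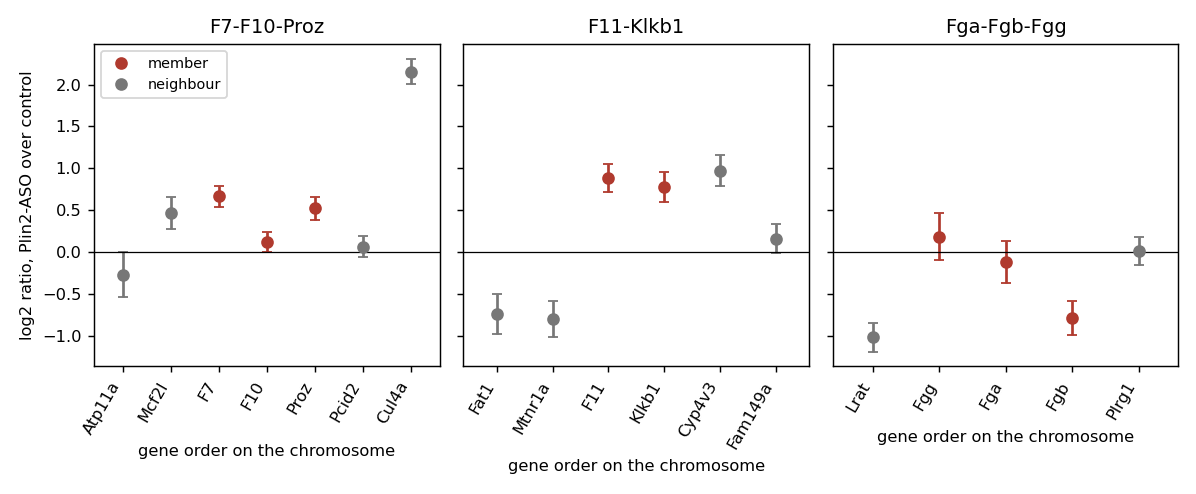
Mean log2 ratio (y axis, livers labelled Plin2-ASO over control livers) with its standard error of genes in chromosome order around F7, F10 and Proz, around F11 and Klkb1 and around the fibrinogen genes; red points are members and grey points their neighbours. F11, Klkb1 and Cyp4v3 lie at 0.78 to 0.97, while the 3 fibrinogen genes lie from -0.78 to 0.19.

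Kng1 encodes kininogen, the carrier of prekallikrein and factor XI. It had the highest signal of the contact group, at 16.75, 16.16, 16.33 and 16.26 in the livers labelled Plin2-ASO, against 16.23, 16.10, 16.31 and 16.12 in the control livers. The ranges overlapped, and the mean log2 ratio was 0.19 ± 0.14 (SE, n = 4, 95% interval -0.14 to 0.52, adjusted p = 0.440). The mouse genome holds a close copy, Kng2, so which gene the probe read is uncertain. F12, the protease that starts the contact pathway, read 0.18, -0.18, 0.19 and -0.16, a mean of 0.01 ± 0.14 (adjusted p = 0.981).

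F8, the cofactor of factor IXa that liver endothelial cells make, read -0.73, -0.44, 0.43 and -0.51 on arrays 1 to 4 (mean -0.31 ± 0.20, SE, n = 4, adjusted p = 0.368). Array 3 again had the opposite sign, and without it the mean was -0.56 (adjusted p = 0.0109). F9, which encodes factor IX, had no usable value because its probes were marked as outliers on 4 and 3 of the arrays. With those spots kept, its brighter probe read -0.07, -0.00, -0.62 and -0.17 (adjusted p = 0.441). The other F9 probe read 0.14, 0.28, -0.21 and -0.12, a mean of 0.03, and only its spot on array 2 was not marked.

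In the common pathway F2 fell, and F10 and F2r did not pass. F2 encodes prothrombin, the precursor of thrombin. Its log2 signal was 16.53, 16.21 and 16.02 in the livers labelled Plin2-ASO on arrays 1, 2 and 4, against 17.01, 17.02 and 17.11 in the control livers. No liver labelled Plin2-ASO reached a control liver, and the control livers differed little among themselves. F2 was 1.74-fold lower, with a mean log2 ratio of -0.80 ± 0.18 (SE, n = 3, 95% interval -1.23 to -0.36, adjusted p = 0.0450). With the outlier spot of array 3 kept, that array read -0.60 and the adjusted p was 0.0314.

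The F2 call was the least stable of the 4. It passed under 9 of 14 alternatives with every array. The exceptions were a background offset of 16, the scanning software's ratios, the series table, no filter on background, and a trended robust fit, with adjusted p of 0.0545, 0.198, 0.152, 0.0507 and 0.0783. It also ended without array 1, 2 or 4 (adjusted p = 0.151, 0.232 and 0.168). With the scanning software's ratios and the series table the mean was -0.50 and -0.48, less than the -0.80 given above by over 1.5 times. The probe (chr2:91476144-91476203, minus strand, mm7) and the promoter (chr2:91636408-91636707, minus strand, GRCm38.p6) are shown for the called decrease, with an HNF1 core (GTTAAT, in 7.20% of all promoters) in capitals.
F2 probe: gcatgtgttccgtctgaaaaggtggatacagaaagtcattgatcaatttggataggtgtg
F2 promoter: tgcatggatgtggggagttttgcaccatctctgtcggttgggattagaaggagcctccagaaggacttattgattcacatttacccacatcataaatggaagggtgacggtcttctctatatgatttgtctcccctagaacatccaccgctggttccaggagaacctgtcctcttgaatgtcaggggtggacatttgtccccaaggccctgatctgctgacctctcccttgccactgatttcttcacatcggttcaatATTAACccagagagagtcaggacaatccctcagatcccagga
The HNF1 core was on the reverse strand and began at base 9 of the transcribed part.

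F10 encodes factor X, which forms the enzyme that activates prothrombin. Its ratios were 0.18, 0.17, 0.06 and 0.07, positive on all 4 arrays but small (mean 0.12 ± 0.12, SE, n = 4, 95% interval -0.17 to 0.41, adjusted p = 0.576). F2r, a thrombin receptor on cell surfaces, read -0.08, -0.73, 0.54 and -0.64 (mean -0.23 ± 0.22, adjusted p = 0.559) and passed without array 3 (mean -0.48, adjusted p = 0.0411). F5, the cofactor of factor Xa, was marked as an outlier on all 4 arrays and was not tested. With those spots kept it read 0.63, 0.74, -0.36 and 0.71, a mean of 0.43 ± 0.21 (SE, n = 4, adjusted p = 0.263).

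None of the 4 clot members tested passed by limma, and 1 had an unadjusted p under 0.05. The 3 fibrinogen chains assemble into one hexamer, and their genes lie side by side. Fgb, the beta chain, had log2 signals of 16.89, 16.32, 15.78 and 16.26 in the livers labelled Plin2-ASO, against 16.95, 17.10, 16.98 and 17.35 in the control livers. The groups did not overlap, though array 1 differed by only 0.06. The mean log2 ratio was -0.78 ± 0.20 (SE, n = 4, 95% interval -1.26 to -0.30, adjusted p = 0.0570). It passed without array 3 (mean -0.64, adjusted p = 0.0328) and under 5 of the 14 alternatives with every array: median centring, scaling between arrays, array quality weights, and the channels as samples with the array as block or as independent samples (adjusted p from 0.0122 to 0.0445).

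Fga, the alpha chain, had signals of 16.76, 16.24, 15.23 and 16.08 in the livers labelled Plin2-ASO, against 16.28, 16.03, 16.33 and 16.16 in the control livers. On array 3 its ratio was -1.10, while the other arrays lay between -0.07 and 0.48. The mean was -0.12 ± 0.25 (SE, n = 4, 95% interval -0.71 to 0.48, adjusted p = 0.806), and without array 3 it was 0.21 (adjusted p = 0.277). Fgg, the gamma chain, had signals of 16.01, 15.70, 15.87 and 15.05 in the livers labelled Plin2-ASO, against 15.00, 15.67, 15.32 and 15.87 in the control livers. Its ratios ran from -0.82 on array 4 to 1.00 on array 1, with a mean of 0.19 ± 0.28 (SE, n = 4, 95% interval -0.47 to 0.84, adjusted p = 0.715). Whether the chains differ from each other was not tested.

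The promoters of the alpha and beta chains (chr3:83025903-83026202 on the plus strand and chr3:83049814-83050113 on the minus strand, GRCm38.p6) are shown because they hold the same 3 cores in the same order. In capitals, from left to right, are a STAT5 core (TTCNNNGAA, which reads alike on both strands), a C/EBP core and an HNF1 core, and no printed core overlaps another.
Fga promoter: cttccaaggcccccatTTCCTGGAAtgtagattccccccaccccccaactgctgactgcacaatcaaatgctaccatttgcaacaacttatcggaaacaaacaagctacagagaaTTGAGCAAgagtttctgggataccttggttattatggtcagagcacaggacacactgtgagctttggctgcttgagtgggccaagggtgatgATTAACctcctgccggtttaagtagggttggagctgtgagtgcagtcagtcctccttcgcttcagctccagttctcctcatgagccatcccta
Fgb promoter: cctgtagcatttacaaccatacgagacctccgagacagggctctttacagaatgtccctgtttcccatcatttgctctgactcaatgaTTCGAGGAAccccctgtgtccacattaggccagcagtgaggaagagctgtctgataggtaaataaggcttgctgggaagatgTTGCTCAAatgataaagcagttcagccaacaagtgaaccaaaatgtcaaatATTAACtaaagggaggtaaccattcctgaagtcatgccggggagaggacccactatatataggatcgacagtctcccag
The cores began 234, 135 and 43 bases before the start in Fga and 162, 80 and 29 before it in Fgb. The Fgg promoter held none of the 6 cores. Beside the cluster, Lrat, a retinol enzyme of stellate cells, was 2.02-fold lower (-1.01 ± 0.17, SE, n = 4, adjusted p = 0.0152), a call that ended without array 1, 2 or 4 (adjusted p = 0.107, 0.100 and 0.0542). Plrg1, on the other side, had a mean of 0.01 (adjusted p = 0.971).

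F13b, the carrier subunit of the transglutaminase that cross-links fibrin, read 0.50, 0.20, 1.39 and -0.24 (mean 0.46 ± 0.25, SE, n = 4, adjusted p = 0.286). Array 4 was negative and array 3 highest. F13a1, the catalytic subunit, which macrophages and platelets make, stayed below the well-above-background call in all livers of both groups and was not tested.

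None of the 7 anticoagulant members passed by limma, and 3 had an unadjusted p under 0.05. Serpinc1, antithrombin, had the highest signal of the group, at 16.46, 16.47, 16.71 and 16.21 in the livers labelled Plin2-ASO, against 16.87, 16.85, 17.03 and 17.00 in the control livers. The groups did not overlap, and all 4 ratios were negative. The mean log2 ratio was -0.48 ± 0.14 (SE, n = 4, 95% interval -0.80 to -0.15, adjusted p = 0.0773). A second Serpinc1 probe read 0.33, 0.54, -0.25 and 0.53, a mean of 0.28 ± 0.17 (adjusted p = 0.317 over all probes), so the probes of this gene had opposite signs. Their mean gave -0.10 (adjusted p = 0.652).

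Thbd encodes thrombomodulin, the endothelial receptor that turns thrombin into an activator of protein C. Its log2 signal was 8.09, 8.74, 9.52 and 8.66 in the livers labelled Plin2-ASO, against 9.71, 10.60, 9.34 and 10.02 in the control livers. On arrays 1, 2 and 4 the ratios were -1.62, -1.86 and -1.37, while array 3 read 0.19. The mean was -1.16 ± 0.32 (SE, n = 4, 95% interval -1.92 to -0.41, adjusted p = 0.0664), the only member beyond 1 log2 unit. Without array 3 it was -1.61 (adjusted p = 0.000209), and without any other array it did not pass. With every array it passed under the same 5 alternatives as Fgb (adjusted p from 3.64e-05 to 0.0491).

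Procr, the endothelial protein C receptor, read -0.68, -0.61, 0.51 and 0.21 (mean -0.14 ± 0.23, SE, n = 4, adjusted p = 0.734). Proz encodes protein Z, a cofactor of a factor Xa inhibitor. The Proz probe used was positive on all arrays at 0.73, 0.48, 0.23 and 0.66 (mean 0.52 ± 0.14, adjusted p = 0.0615). Another kept Proz probe read 0.86, 0.99, -0.16 and 0.81 on arrays 1 to 4. The probe used passed without array 3 (mean 0.62, adjusted p = 0.00665), with array quality weights (0.00143) and with the array as block (0.0425). Proc, protein C, had ratios of 0.03 to 0.32 (mean 0.19 ± 0.13, adjusted p = 0.374), and Pros1, its cofactor protein S, ratios of 0.08 to 0.42 on 3 arrays (mean 0.25 ± 0.16, adjusted p = 0.377). Serpind1, heparin cofactor II, had a mean of -0.17 ± 0.16 (adjusted p = 0.540).

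Of the 6 fibrinolysis members tested none passed by limma, and 4 had an unadjusted p under 0.05. Plg, plasminogen, had the highest signal, at 16.76, 16.68, 16.42 and 16.55 in the livers labelled Plin2-ASO, against 16.30, 16.31, 16.54 and 16.53 in the control livers. The groups overlapped, with a mean log2 ratio of 0.18 ± 0.15 (SE, n = 4, 95% interval -0.17 to 0.53, adjusted p = 0.489). Plat, tissue plasminogen activator, was negative on all arrays at -0.84, -1.47, -0.61 and -0.23. Its signals did not overlap between the groups, but the mean of -0.79 ± 0.21 (SE, n = 4) did not pass (adjusted p = 0.0574). Without array 3 it did (mean -0.85, adjusted p = 0.0180), as it did with array quality weights (0.00117) and with the channels as samples, with the array as block (0.0234) or independent (0.0351).

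Plaur, the urokinase receptor of leukocytes, read -0.14, -0.58 and -0.73 on arrays 1 to 3 (mean -0.48 ± 0.18, SE, n = 3, adjusted p = 0.153), with the spot of array 4 marked as an outlier. With that spot kept, array 4 read 0.76 and the mean was -0.17 (adjusted p = 0.722). A second probe read -1.57, -1.50, -0.67 and -0.98 on arrays 1 to 4, a mean of -1.18 ± 0.18 (SE, n = 4) with an adjusted p of 0.00988 over all probes. The mean of the probes passed (-0.90, adjusted p = 0.00769), so the call of Plaur depended on the probe. Plau, urokinase, did not pass the background filter and was not tested.

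The members that restrain fibrinolysis did not pass. Cpb2, a carboxypeptidase that protects fibrin, read 0.65, 0.20, 0.86 and 0.01 (mean 0.43 ± 0.18, SE, n = 4, adjusted p = 0.172), and Hrg, a plasma glycoprotein that binds plasminogen and heparin, read 0.49, 0.07, 0.37 and 0.64 (mean 0.39 ± 0.14, adjusted p = 0.133). Both were positive on all arrays and their signals did not overlap between the groups. Serpinf2, the plasmin inhibitor, had a mean of 0.02 ± 0.15 (adjusted p = 0.949).

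**Figure D4:**
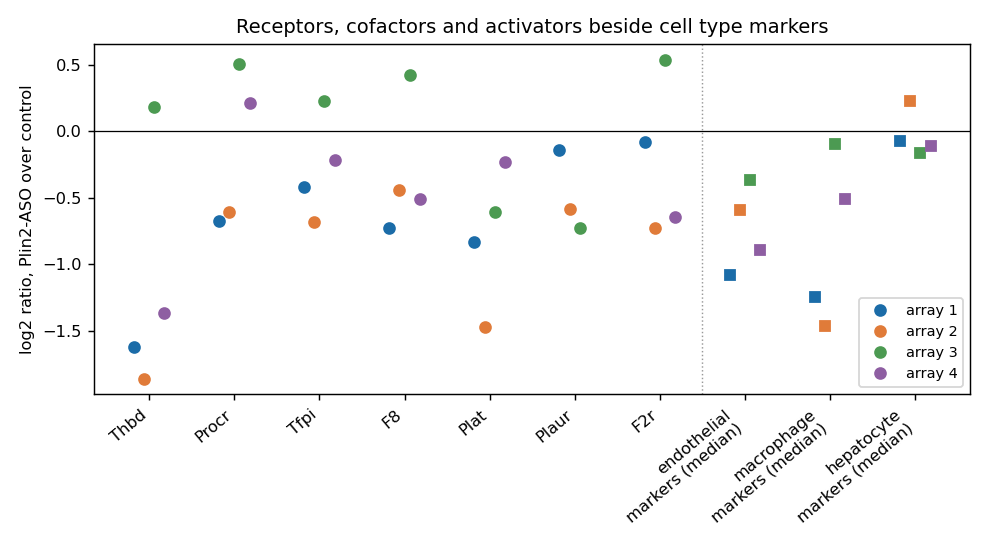
Log2 ratio (y axis, livers labelled Plin2-ASO over control livers) on each array for 7 members known from endothelial or blood cells (circles) and, right of the dotted line, the median of the endothelial, macrophage and hepatocyte markers (squares); colours are arrays 1 to 4. For Thbd, Procr, Tfpi, F8 and F2r array 3 is the highest and is above 0, and it is the highest median of the endothelial and macrophage markers too. Plat is highest on array 4. The Plaur probe shown has no value on array 4 and is lowest on array 3, while the second Plaur probe, not shown, was highest on array 3 (-0.67).

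Over all members tested array 3 gave the highest ratio for 13, among them the hepatocyte genes F11, Klkb1, F13b and Cpb2, and the lowest for 10. Markers of the cells that supply receptors and activators such as Thbd, Plat, Plaur, F8 and Tfpi were read on the same arrays. Of 9 endothelial markers 4 fell and none rose by limma (5 had an unadjusted p under 0.05), among them Egfl7, Stab1, Tie1 and Pecam1. Their median log2 ratio was -1.08, -0.59, -0.36 and -0.89 on arrays 1 to 4. The log2 of the summed signal of the 9 was 13.64 to 14.12 in livers labelled Plin2-ASO and 14.38 to 14.90 in control livers. All 4 of these calls ended without array 1 or without array 2 (adjusted p from 0.0742 to 0.291). The part of endothelial cells in the readings of these members was not tested, and in bulk liver fewer cells of a type and less RNA per cell cannot be told apart.

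Of 8 macrophage and monocyte markers 4 fell and 2 rose, so the list did not move as one. Clec4f (5.15-fold, adjusted p = 0.00148) and Vsig4 (5.75-fold, adjusted p = 0.00172) rose. Cd68 (-1.78), Csf1r (-0.95), Itgam (-0.94) and Cd5l (-1.02) fell (adjusted p = 0.00601, 0.0424, 0.0326 and 0.0471). Adgre1 (-0.80) and Ccr2 (-0.88) did not pass (adjusted p = 0.107 and 0.0612). The median ratio of the 8 was -1.25, -1.46, -0.09 and -0.51 on arrays 1 to 4. The log2 of their summed signal was 14.89 to 15.95 in livers labelled Plin2-ASO and 15.96 to 16.75 in control livers. Clec4f had no value on array 1, so the median and sums of that array leave it out. The 14.89 is that of array 1, and Clec4f read 13.24 to 13.64 in the other livers labelled Plin2-ASO. The sums of array 1 are therefore not like those of the other arrays. Of 7 platelet markers 3 were tested and Pf4 fell by 1.69 on the log2 scale (adjusted p = 0.0393), a call that ended without array 1, 2 or 4. Of 7 stellate markers 4 fell. The log2 of the summed signal of the 7 was 15.09 to 15.58 in livers labelled Plin2-ASO and 16.48 to 17.27 in control livers. Of 4 neutrophil markers 1 fell, of 3 cholangiocyte markers tested 1 fell, and of 3 adipocyte markers tested none passed by limma (none at an unadjusted p under 0.05). The fat cell gene Adipoq read 4.10 on array 3 and -0.00 to 0.52 on the rest. Of the other adipocyte markers tested, Plin1 read 1.96 and Lep -0.13 on array 3. Without array 3, 8 endothelial, 6 macrophage and 5 stellate markers were lower (as were 20.3% of all genes). Without array 1 the counts were 0, 1 and 2, and only 206 of all genes were lower. The part of these cells in any member's reading was not tested.

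The vitamin K enzymes and the remaining protease did not pass by limma. Vkorc1, the reductase that recycles vitamin K and the target of warfarin, had log2 signals of 15.70, 15.73, 15.89 and 15.57 in the livers labelled Plin2-ASO, against 15.92, 15.84, 16.09 and 16.20 in the control livers. Each pair was lower in the liver labelled Plin2-ASO, but the groups overlapped (mean log2 ratio -0.29 ± 0.14, SE, n = 4, 95% interval -0.63 to 0.04, adjusted p = 0.235). Ggcx, the carboxylase that uses the vitamin, had a mean of -0.04 ± 0.14 (adjusted p = 0.895).

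Hgfac, a protease related to factor XII that activates hepatocyte growth factor, had signals of 15.14, 14.77, 14.67 and 14.75 in the livers labelled Plin2-ASO, against 14.72, 14.32, 14.56 and 14.18 in the control livers. Each pair was higher in the liver labelled Plin2-ASO while the groups overlapped slightly. The mean log2 ratio was 0.39 ± 0.14 (SE, n = 4, 95% interval 0.07 to 0.70, adjusted p = 0.123), and it passed without array 3 (mean 0.48, adjusted p = 0.0168).

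For 8 of the members tested, more than 1 kept probe was measured on at least 3 arrays. Serpinc1 had probes of opposite sign and Plaur probes on either side of the threshold, as described above. Kng1 had a second probe at 0.65 ± 0.21, against 0.19 for the probe used, and Pros1 one at -0.00 ± 0.16, against 0.25. Proz (0.63, against 0.52), Plg (0.31, against 0.18), Tfpi (-0.27 for both) and F3 (0.09, against 0.08) had probes with means of like sign. F7, F11, Klkb1 and F2 have 1 probe each, so none of the 4 calls has a second probe.

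**Figure D5:**
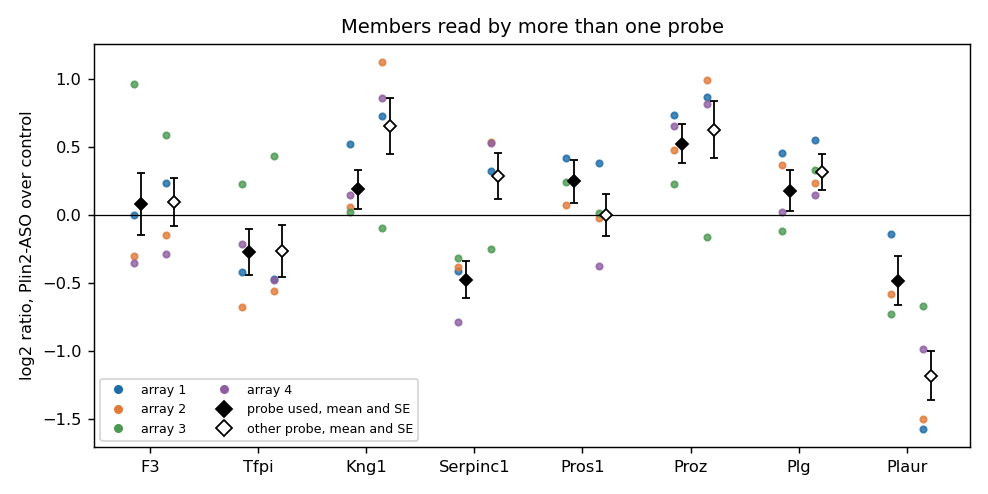
Log2 ratio (y axis, livers labelled Plin2-ASO over control livers) of the probes kept and measured on at least 3 arrays, for the 8 members tested that had more than one such probe; points are arrays 1 to 4 and diamonds the mean with its standard error, filled for the probe used and open for the other. The diamonds of Serpinc1 lie on opposite sides of 0, and those of Plaur lie at -0.48 and -1.18.

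Other genes of clotting, platelets and their regulation were taken from a second list, of which 25 of 35 could be tested. The list was chosen with earlier results of these data known, so its share of calls cannot be read as a result about the pathway. Of these 7 passed (28%, against 9.74% of all genes), 4 of them higher (16%, against 3.67%) and 3 lower (12%, against 6.07%), and the median log2 ratio was -0.06, against -0.03 for all genes. Anxa2, a cell-surface receptor for plasminogen and its activator, was 5.59-fold lower (-2.48 ± 0.19, SE, n = 4, adjusted p = 0.00148), reading -2.98, -2.76, -2.22 and -1.97 on arrays 1 to 4, and passed under all 18 alternatives. Its partner S100a10 had a mean of -0.62 ± 0.19 (adjusted p = 0.0879). Gas6, a vitamin K dependent ligand related to protein S, was 2.85-fold lower (-1.51 ± 0.17, SE, n = 3, adjusted p = 0.00589), and Vwf, the carrier of factor VIII, fell by 0.88 (adjusted p = 0.0181).

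Among those that rose, Serpine2, an inhibitor of thrombin, was 2.39-fold higher (1.26 ± 0.18, SE, n = 4, adjusted p = 0.00839), at 1.59, 1.03, 1.63 and 0.80 on arrays 1 to 4. Serping1, the C1 inhibitor, which also blocks kallikrein and factor XIIa, rose by 0.92 (adjusted p = 0.0295), the complement regulator C4bp by 0.91 (0.0215) and Asgr2, a subunit of the asialoglycoprotein receptor, by 0.60 (0.0269). Without array 1 the calls of Serpine2, Serping1, C4bp, Asgr2 and Vwf ended (adjusted p = 0.0635, 0.167, 0.145, 0.177 and 0.110). Without array 2 those of Gas6, Serping1, C4bp, Asgr2 and Vwf ended (0.0547, 0.153, 0.0862, 0.185 and 0.108), and without array 4 those of Serping1 and Asgr2 (0.0729 and 0.0731). That of Asgr2 also ended with median centring (0.103).

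A list of 13 transcription regulators of hepatocytes was also read, chosen with earlier results of these data known. Of these Onecut1 rose (1.77 ± 0.34, SE, n = 4, 3.41-fold, adjusted p = 0.0232) and none fell by limma, while 3.67% of all genes were higher. The ratios of Onecut1 were 2.63, 2.25, 1.83 and 0.37 on arrays 1 to 4, and the call ended without array 1 or 2 (adjusted p = 0.112 and 0.110). An unadjusted p under 0.05 was found for 6 of the 13, against 26.9% of all genes. The ratio was positive for 11 of the 13, against 8340 of all 18045 genes, with a median of 0.44, against -0.03. Because of how the list was chosen, these counts cannot be read as a result about such regulators. Hnf4a had a mean of 0.78 ± 0.22 (adjusted p = 0.0731) and read -0.04 on array 3. Nr0b2, Nr1i3 and Foxa3 had means of 0.60, 1.05 and 0.65 (adjusted p = 0.0519, 0.0616 and 0.0678). The negative means were those of Foxa2 and Stat5b, at -0.42 and -0.23. Without array 3, 6 of the 13 were higher (as were 12.4% of all genes), against 0 without array 1 or without array 2 (6 and 5 at an unadjusted p under 0.05). Over all genes 145 were higher without array 1 and 163 without array 2.

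The RefSeq promoter table used here was matched to 29 of the 35 members. The C/EBP core was found in 37.9% of them, against 10.8% of all promoters, the HNF1 core in 20.7%, against 7.20%, and the STAT5 core in 17.2%, against 8.47%. The FOXA core was in 10.3%, against 3.55%, the HNF4 core (AAGTCCA) in 3.45%, against 4.14%, and TATAAA in 13.8%, against 14.2%. These are shares of matching letters on either strand and not measured binding sites.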

How the data were processed

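Liver RNA from 4 mice labelled Plin2-ASO and 4 control mice was measured on 4 two-colour Agilent arrays, 1 pair an array, and each array was 1 replicate. All arrays were on 1 slide in 1 scan, so a slide block was not possible. Spot intensities (mean signal and median local background, deposited before correction) and log10 ratios of red over green were made with Feature Extraction 9.5.1.1, per the file headers. The authors also deposited a table of log2 ratios, red over green, that matched the software's ratios after conversion (largest difference 0) and had a column median of 0 on each array. RNA was amplified and labelled with an aminoallyl kit, per the labels' protocols.

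Mean signals were corrected by normexp with an offset of 50, then normalised by loess within each array, in limma 3.58.1 (R 4.3.3, statmod 1.5.0, data.table version 1.17.8). Control spots (1639 of 45018) had weight 0, and spots marked as outliers were set to missing. Probes well above background on at least 3 arrays in 1 channel were kept (27160 of 41174, and 44 of the 52 probes of members), and a gene took its brightest kept probe measured on at least 3 arrays. The mean log2 ratio was tested against 0 (lmFit, eBayes, two-sided), with Benjamini-Hochberg adjustment over 18045 genes at 0.05. Every adjusted p in the text is from limma. Standard errors are moderated and intervals are at 95%. Adjusted p over all probes comes from the same fit on all kept probes. They reflect how the 4 mouse pairs vary, and a dye effect common to all arrays adds nothing to that spread.

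Names came from the RefSeq table of GRCm38.p6 for probes that matched by accession (22951), symbol (6659) or older symbol (3109), and 8455 kept the file's name. Probe coordinates are the files' (mm7). Members and lists were chosen with earlier results of these data known. Every member was to be accounted for, with full values for called members, those beyond 1 log2 unit, the fibrinogen chains and the brightest member of each role. Other genes were named where they passed in the second list, as markers, or where the text says they were looked up afterwards. Alternatives were other background corrections, normalisations, filters, probe rules and fits, and leaving out each array. The fit was tested on simulated data with known changes. A probe sequence of Serpinc1 is not reported here.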

Additional observations from a re-analysis of the deposited data

Results flagged for a closer look

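Of the 28 members measured on all 4 arrays, 2 had an array that stood apart from the other 3 by Dixon's test. Chance marks about 1 in 20 such groups. Serpinf2, the plasmin inhibitor, read -0.40 on array 4 and 0.13 to 0.20 elsewhere, with a gap of 0.891 of the range. Ggcx, the vitamin K dependent carboxylase, read -0.37 on array 3 and 0.05 to 0.12 elsewhere, with a gap of 0.856 of the range.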

How the results depend on the processing

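The count of members called was 16 with array quality weights, 8 with the channels as samples and the array as replicate block, 7 with the channels as independent samples, 2 with the series table's values and 0 to 13 with each array left out, against 4 as reported. Under the array quality weights 7004 genes and 12 genes of the second list passed, against 1758 and 7. With the array as block 812 of all genes were higher and 1444 lower, against 662 and 1096 as reported. With the channels as independent samples these were 631 and 1195, and with the series table's values 476 and 759. Leaving out each array gave 351 to 5906 genes and 2 to 11 genes of the second list. F11 and Klkb1 passed under all 14 alternatives that kept every array, F7 under 12 and F2 under 9, while Fgb and Thbd, which did not pass as reported, did so under 5 of them. No member changed sign in a fit where it passed. The share of all calls that were higher stayed between 34.6% and 42.8%, against 37.7%. Precision is limited by 4 arrays, F13a1 and Plau were too dim to test, and F5 and F9 were lost to spots marked as outliers.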
